A study of Mus musculus with 30 samples.

Results

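RNA from astrocytes sorted out of the mouse nucleus accumbens was set against RNA from whole nucleus accumbens tissue, both from mice given saline. The members were the 5 arrays titled as saline astrocytes and the 5 arrays titled as saline tissue, 10 of the 30 arrays of the series, and they were described across all 13228 genes with a detected probe. The astrocyte group held astrocytes separated magnetically from the nucleus accumbens 4 h after an injection of saline, and the tissue group held the undivided nucleus accumbens under the same conditions, all mice being of the C57BL/6J strain. Neurons sorted in the same way after saline (5 arrays), and astrocytes and tissue taken 4 h after dexamethasone at 4 mg/kg (5 arrays each), served for 2 further comparisons. Each array was taken as RNA of an individual mouse, and the labels name no transgene or deletion in any group. No source used here states the age or sex of the mice, the antibody of the sort or how the tissue was handled before lysis. The astrocytes had been dissociated and sorted and the tissue had not, so that cell type and preparation cannot be told apart in any difference below. In bulk RNA, moreover, fewer cells of a type and less RNA per cell cannot be told apart.

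Astrocytes are the glial cells that take up glutamate and potassium released at synapses, supply neurons with metabolites, cover blood vessels with their end-feet and are joined into networks by connexins. In the nucleus accumbens, a part of the ventral striatum that is known for its role in reward, they lie among medium spiny neurons, the GABA-releasing projection cells that respond to dopamine, and among interneurons, oligodendrocytes, microglia and vessels. Tissue RNA is a mixture of all of these, astrocytes included.

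Values are log2 levels, that is, background-corrected and quantile-normalized bead intensities on a log2 scale, and a difference of 1 is a 2-fold change. A gene was called where limma gave a p under 0.05, adjusted by Benjamini-Hochberg over all genes, in a fit of the 15 saline arrays. The offset of 16 added to the intensities understates the differences of dim genes. On all 10 astrocyte and tissue saline arrays, 10 genes lay within 0.5 of the highest intensity of the series, where differences are compressed. Levels of different probes were not compared with each other.

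The share of probes detected was 39.8% ± 1.82 on astrocyte arrays and 43.0% ± 1.17 on tissue arrays (SD, n = 5 each). Arrays correlated with r of 0.950 to 0.976 within the astrocytes, 0.969 to 0.985 within tissue and 0.844 to 0.894 between them. The median SD of a gene was 0.33 over astrocyte arrays and 0.25 over tissue arrays. Some arrays stood apart from the other 4 of their group. Astrocyte replicate 1 lay more than 1 log2 unit outside the other 4 for 269 genes and astrocyte replicate 3 for 202, against 47 to 67 for the other 3 astrocyte arrays. Tissue replicate 2 did so for 95 genes and the other 4 tissue arrays for 10 to 16. Across all genes astrocyte replicate 5 was the astrocyte array most like tissue. Its median r to the tissue arrays was 0.892, against 0.848 to 0.866 for the other astrocyte arrays. Genes high on astrocyte replicate 1, named after their values were seen, included the fat tissue gene Adipoq (10.99, against 5.55 to 6.23 on the other 4), Lpl, Retnla and the acute-phase gene Hp. Lpl was also high on the saline arrays of tissue (11.32 to 11.96) and neurons (12.81 to 13.32), and Retnla on those of tissue (7.64 to 8.27). Genes low on astrocyte replicate 1 included those of medium spiny neurons, such as Tac1 and Drd1. Tissue replicate 5 was low in Xist, the RNA of the inactive X chromosome (5.85, against 9.25 to 11.43 on the 28 arrays other than tissue replicate 5 of either agent), and high in the Y-linked Eif2s3y (11.01, against 5.19 to 5.86 on the other 4 tissue arrays and 5.18 to 6.23 on the astrocyte arrays) and in the dopamine transporter gene Slc6a3. Kdm5d, also Y-linked, was high on tissue replicate 5 too (7.5). Eif2s3y also exceeded 8 on 1 of 5 neuron saline, 2 of 5 neuron dexamethasone and 1 of 5 tissue dexamethasone arrays. Of these, tissue dexamethasone replicate 5 was low in Xist (5.55). The neuron arrays were not, with Xist at 10.89 on saline replicate 5 and at 11.33 and 10.60 on dexamethasone replicates 3 and 5. The labels used here give no sex. Whether these arrays hold RNA of male animals, of exchanged samples, of more than 1 animal or of none of these was not tested. Counts below that moved by over 1.5 times when 1 of these arrays was left out are given with that value beside them.

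Between the 2 preparations 6859 of 13228 genes were called, 51.9% of those tested, with 3202 genes (24.2%) higher and 3657 genes (27.6%) lower in astrocytes. At an unadjusted p under 0.05 the number was 7508, and leaving out any 1 of the 10 arrays gave 6452 to 6748 called genes. The shares of 24.2% higher and 27.6% lower stand as background for the list counts below. A gene was tested only where a probe was detected on at least 5 of the 30 arrays. A list member may therefore enter its count through the preparation where it is high. The median difference over all genes tested was -0.04. For 5022 genes, 38% of those tested, the 5 astrocyte arrays did not overlap the 5 tissue arrays, with astrocytes above tissue for 2349 (17.8%) and below it for 2673 (20.2%). With no normalization between arrays 6123 genes were called, 2269 higher and 3854 lower, so that 37.1% of the calls were higher in place of 46.7%, and the median over all genes was -0.16. With arrays scaled to the same median 3438 genes were called higher and 3337 lower. At least 2-fold differences were called for 1655 genes higher and 1760 lower, at least 4-fold for 473 and 585, at least 8-fold for 60 and 170, and at least 16-fold for 1 and 17. Detection on all 5 arrays of one preparation and on none of the other was seen for 58 genes in astrocytes and for 197 in tissue. Where none of a group's arrays detected a gene, the fold has only a bound, and the highest bounds were 9.90-fold for Ccl3 in astrocytes and 12.2-fold for Gjd2 in tissue.

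The astrocyte core list, 30 genes in use as astrocyte markers, stood higher in the sorted cells throughout. All 29 members tested were called higher, 27 of them without overlap of the arrays, with a median difference of 2.46 against -0.04 over all genes. On single chips, each of which held 1 array of every group, the median of the list was between 2.37 and 2.46. Of the 38 lists 29 had a median of the same sign on all 5 chips. The other 9, all with overall medians between -0.60 and 0.29, were the astrocyte receptor, border macrophage, mural, ependyma, red blood cell, cell division, oxidative phosphorylation, ribosomal and cytoskeleton lists. Fgfr3, a fibroblast growth factor receptor that astrocytes keep into adulthood, had levels of 11.78, 11.85, 11.56, 11.32 and 11.47 on the 5 astrocyte arrays, against 7.67, 5.76, 7.79, 7.54 and 7.44 on the 5 tissue arrays. Its difference of 4.36 ± 0.32 (SE, n = 5 arrays each; adjusted p = 1.36e-08) was the largest rise among all called genes. The groups were far apart, and tissue replicate 2 lay below its fellows. The serine and alanine exchanger Slc7a10 had levels of 13.98, 13.82, 14.10, 13.81 and 13.62 in astrocytes, against 10.47, 10.14, 10.21, 10.16 and 10.12 in tissue, a difference of 3.64 ± 0.21. Slc1a2, which encodes the main glutamate transporter GLT-1, had levels of 14.23, 14.12, 14.52, 14.12 and 14.04 in astrocytes, against 10.49, 10.80, 10.93, 11.18 and 10.75 in tissue, a difference of 3.38 ± 0.38. No array of either preparation reached into the range of the other for these genes.

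Other core genes with differences near 3 were the urea transporter Slc14a1 (3.56 ± 0.17), the ectonucleotidase Entpd2 (3.26 ± 0.30), the folate enzyme Aldh1l1 (3.13 ± 0.27), the water channel Aqp4 (2.98 ± 0.25) and the cell adhesion protein Hepacam (2.95 ± 0.21). Acsbg1, an acyl-CoA synthetase, differed by 2.89 ± 0.29, the sodium pump subunit Atp1b2 by 2.86 ± 0.23, and Cbs, which makes cystathionine, by 2.83 ± 0.24. The zinc transporter Slc39a12 differed by 2.69 ± 0.34, the glutamine synthetase gene Glul by 2.49 ± 0.26, the neurotensin receptor Ntsr2 by 2.49 ± 0.19 and Itih3 by 2.46 ± 0.29. Sox9, a transcription factor of the astrocyte lineage, differed by 2.31 ± 0.17, the glycogen-targeting subunit Ppp1r3c by 2.27 ± 0.29, Acsl6 by 2.29 ± 0.12, the proteoglycan Gpc5 by 2.21 ± 0.24 and the bicarbonate transporter Slc4a4 by 2.18 ± 0.21. All of these were called.

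The smaller differences of the list belonged to several bright probes, to Mlc1 and to Gfap. The connexin genes Gja1 (1.83 ± 0.22) and Gjb6 (1.78 ± 0.25), Fam107a (1.92 ± 0.22), S100b (1.86 ± 0.18), Aldoc (1.57 ± 0.23), Ndrg2 (1.34 ± 0.21) and the glutamate transporter Slc1a3 (0.75 ± 0.23) were each called. Slc1a3 averaged 15.99 ± 0.04 in astrocytes and 15.24 ± 0.12 in tissue (SD, n = 5 each), close to the highest intensity of 16.11. Mlc1, which lies with Hepacam at astrocyte contacts, was detected on 3 astrocyte arrays and 0 tissue arrays, was called higher (adjusted p = 0.0037) and has a bound of at least 1.10-fold. Gfap, the intermediate filament often used to stain astrocytes, had levels of 12.53, 11.31, 10.82, 10.66 and 10.87 in astrocytes, against 10.15, 10.69, 10.59, 10.53 and 10.48 in tissue. Astrocyte replicate 1 alone was far above tissue. Astrocyte replicate 4 (10.66) lay within the tissue range, and replicates 3 and 5 lay shortly above it. The difference was 0.75 ± 0.29 (adjusted p = 0.0412), and it was 0.43 without astrocyte replicate 1. It was not called with the chip as a block (adjusted p = 0.0683), with no normalization between arrays (adjusted p = 0.112), or without any 1 of astrocyte replicates 1 and 2 and tissue replicates 1, 3, 4 and 5. Against sorted neurons 7692 genes were called (58.1%), 27% of all genes being higher and 31.2% lower in astrocytes, and all 29 core members were called higher with a median of 4.39. With no normalization between arrays 60.5% of the genes called against neurons were higher, in place of 46.3%.

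**Figure D1:**
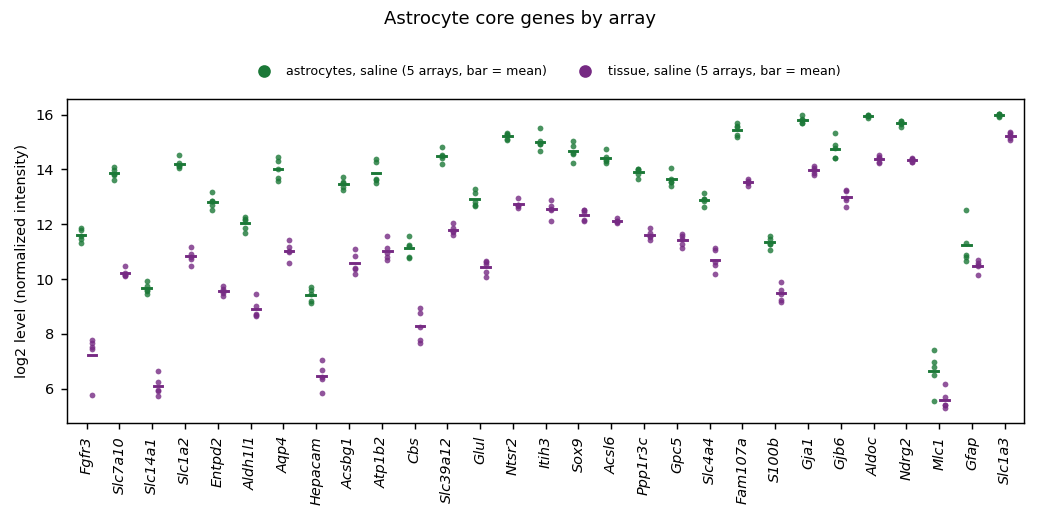
Log2 levels of the 29 tested astrocyte core genes on each saline array, ordered by the difference between the means; points are arrays, bars are means of 5 arrays, and astrocytes stand left of tissue in each pair. The astrocyte points lie above all tissue points for 27 genes, and Gfap and Mlc1 are the genes whose points overlap.

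Transcription factors of the astrocyte lineage were all higher in the sorted cells. The list of 30 had 26 members tested, of which 26 were called higher with a median of 1.92. Nr2e1, the nuclear receptor TLX, had levels of 10.33, 11.34, 11.37, 11.17 and 10.92 in astrocytes, against 7.74, 8.08, 8.17, 7.64 and 7.48 in tissue, a difference of 3.21 ± 0.25. The homeobox gene Dbx2 differed by 3.18 ± 0.14, the LIM homeobox gene Lhx2 by 2.99 ± 0.19, the nuclear receptor Rorb by 2.96 ± 0.21, Sox21 by 2.57 ± 0.17 and Klf15 by 2.33 ± 0.17. The differences of Hey1, a Notch target (0.72 ± 0.10), and Prdm16 (0.94 ± 0.18) were among the smallest. The smallest was that of Etv5 (0.71). Etv5 was not called with no normalization between arrays (adjusted p = 0.150), or without any 1 of astrocyte replicates 1 and 4 and tissue replicates 1, 4 and 5. A list of 15 genes known to vary among astrocytes of brain regions had 13 members tested, all called higher, with a median of 2.15. Its leading members were Lgi4 (3.89 ± 0.27), a secreted protein of glia, Thrsp (3.28 ± 0.32) and the GABA transporter Slc6a11 (2.65 ± 0.17), and the smallest apart from Gfap were Crym (1.10 ± 0.23), a thyroid hormone binding protein of striatal astrocytes, and the imprinted gene Nnat (1.18 ± 0.34).

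Genes for clearing glutamate, GABA, glycine and potassium formed the list with the highest median of all 38, 2.67. Of its 18 members tested 17 were called higher and 0 lower. Gldc, the glycine decarboxylase, had levels of 14.28, 13.79, 13.96, 13.91 and 13.30 in astrocytes, against 9.81, 10.83, 10.72, 10.42 and 10.07 in tissue, a difference of 3.48 ± 0.24 with no overlap. The glutamine transporter Slc38a3 (3.16 ± 0.22), the proline dehydrogenase Prodh (3.0 ± 0.25) and the monoamine oxidase Maob (2.74 ± 0.20) followed. Kcnj10, the potassium channel Kir4.1, was the member not called (adjusted p = 0.103), and with the chip as a block it was called (adjusted p = 0.0392). Its probe was dim, with detection on 3 astrocyte and 0 tissue arrays and a bound of at least 1.08-fold.

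Receptor genes reported in astrocytes did not move as a group. Of 33 listed, 16 were tested, with 6 called higher and 7 lower and a median of 0.29. Ntsr2 (2.49 ± 0.19), the endothelin receptor Ednrb (2.20 ± 0.21) and the GABA-B subunit Gabbr1 (1.40 ± 0.24) were higher. The dopamine receptors Drd1 (-3.98 ± 0.43) and Drd2 (-3.06 ± 0.36), which medium spiny neurons also carry, the somatostatin receptor Sstr2 (-3.32 ± 0.27) and the metabotropic glutamate receptor Grm5 (-2.46 ± 0.38) were lower. Chrm3, a muscarinic receptor, went undetected on the astrocyte arrays and was at least 2.27-fold lower. The cannabinoid receptor Cnr1 (0.50 ± 0.26, adjusted p = 0.128) was not called, and without astrocyte replicate 1 it was (0.66, adjusted p = 0.0437).

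Secreted and surface proteins by which astrocytes act on synapses stood mostly higher, with 18 of 22 tested called higher, 2 lower and a median of 2.19. The alarmin gene Il33 had levels of 10.93, 11.61, 12.10, 11.99 and 11.66 in astrocytes, against 8.08, 7.87, 8.02, 8.64 and 8.54 in tissue, a difference of 3.43 ± 0.22. The phagocytic receptors Mertk (3.09 ± 0.20) and Megf10 (2.53 ± 0.24), the ligands Wnt7b (3.0 ± 0.23) and Ndp (2.84 ± 0.20) and the proteoglycan Bcan (2.89 ± 0.32) were also higher. Bdnf (-1.58 ± 0.32), a growth factor made by neurons, and Nlgn2 (-1.05 ± 0.13), a neuroligin of inhibitory synapses, were lower. Of the connexins and adhesion molecules, 11 of 14 tested were called higher and 1 lower. The dystrobrevin Dtna (2.64 ± 0.13), Itga6 (2.37 ± 0.22) and Cdh20 (2.27 ± 0.18) were among the higher ones, and the pannexin Panx1 (-2.95 ± 0.26) was the lower one. For Ncam1 the probes disagreed: the one used differed by -0.24 ± 0.19 and was not called, and its other 2 detected probes differed by 1.71 and 1.73.

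Fatty acid oxidation genes were higher for 17 of 20 tested and lower for 2, with a median of 1.69. The acyl-CoA thioesterase Acot11 (2.83 ± 0.23), the thiolase Acaa2 (2.62 ± 0.21), the dehydrogenase Acadl (2.33 ± 0.29) and the fatty acid binding protein Fabp7 of glia (2.49 ± 0.24) were higher. Fabp3, the binding protein that neurons use, was lower, with levels of 9.66, 9.65, 7.88, 9.31 and 10.14 in astrocytes, against 12.14, 11.93, 11.91, 12.04 and 12.08 in tissue. Its difference was -2.69 ± 0.29, with no overlap. Cholesterol and lipid synthesis genes were higher for 14 of 18 tested and lower for 3, with a median of 1.05. Srebf1, which switches on lipid synthesis (2.90 ± 0.19), Scd1 (2.06 ± 0.26) and Msmo1 (1.87 ± 0.17) were higher. Cyp46a1, the cholesterol 24-hydroxylase of neurons (-1.57 ± 0.26), the transporter Abcg1 (-2.18 ± 0.19) and Lpl (-2.07 ± 0.51) were lower. Lpl was one of the genes high on astrocyte replicate 1, and its arrays overlapped.

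Glycolysis, lactate and glycogen genes lay on both sides, with 12 of 26 tested called higher (46.2%) and 5 lower (19.2%) and a median of 0.35. The glycogen phosphorylases Pygb (2.59 ± 0.16) and Pygm (2.39 ± 0.23), Ppp1r3c (2.27 ± 0.29) and the pyruvate dehydrogenase kinase Pdk4 (2.48 ± 0.14) were higher. The neuronal glucose transporter Slc2a3 had levels of 9.50, 9.34, 9.96, 9.21 and 9.95 in astrocytes, against 12.50, 12.86, 12.87, 12.75 and 12.96 in tissue, a difference of -3.20 ± 0.17. The neuronal enolase Eno2 (-2.84 ± 0.15) and the pyruvate kinase Pkm (-0.62 ± 0.11) were lower as well. The number of lower members was 3 without astrocyte replicate 3 or 5 or tissue replicate 1. Ldha (-0.05 ± 0.13), a subunit of lactate dehydrogenase, was not called. Oxidative phosphorylation, with 1 of 26 tested higher and 3 lower, and ribosomal proteins, with 1 of 20 higher and 3 lower, had medians of -0.03 and -0.05. Their counts lie below the 24.2% and 27.6% of all genes called in each direction. When 1 array was left out the ribosomal list had 0 or 1 higher and 0 to 4 lower, with 0 lower without astrocyte replicate 2 or tissue replicate 5 and 1 lower without astrocyte replicate 1 or 3. The oxidative phosphorylation list had 1 or 2 higher, with 2 without astrocyte replicate 1 or 3 or tissue replicate 1, and 2 to 4 lower.

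Genes of the extracellular matrix and its proteases were higher for 15 of 21 tested and lower for 3, with a median of 1.34. The laminin Lamb2 (2.60 ± 0.22), tenascin Tnc (2.57 ± 0.23), the link protein Hapln1 (2.39 ± 0.19), the membrane metalloprotease Mmp14 (2.42 ± 0.19) and the protease inhibitors Timp4 (2.47 ± 0.19) and Timp3 (2.23 ± 0.20) were higher. Timp2 (-1.04 ± 0.14) and Adamts4 (-0.95 ± 0.23) were lower. Timp1, an inhibitor that is induced in inflammation, differed by 0.05 ± 0.21 and was not called.

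**Figure D2:**
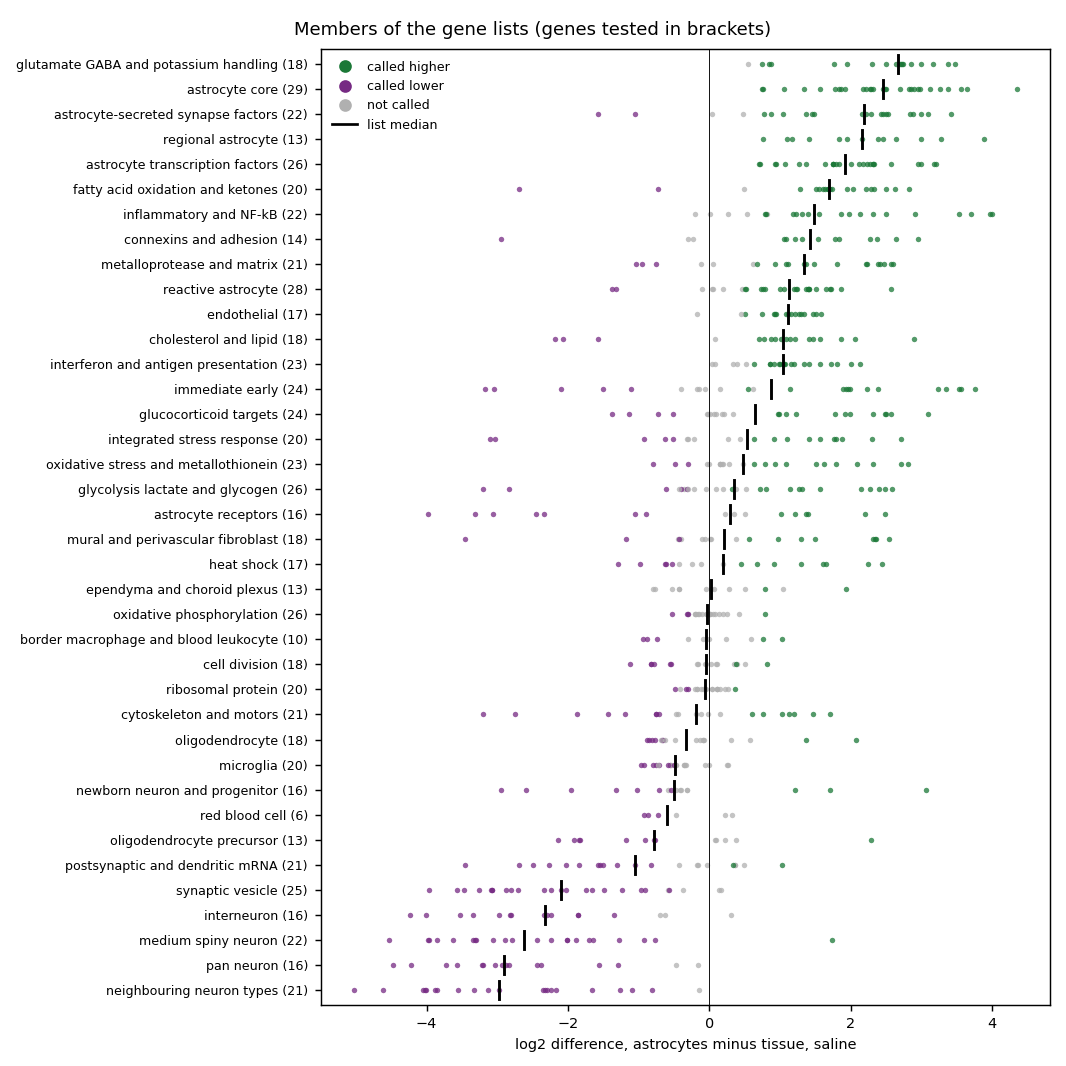
Difference in log2 level, astrocytes minus tissue under saline, for every tested member of the 38 gene lists, with the lists ordered by their median (black bar) and the number of genes tested in brackets; green members were called higher, purple lower and grey not called. The 5 highest medians, 1.92 to 2.67, belong to lists of astrocyte genes and the 5 lowest, -2.98 to -2.10, to lists of neuron genes, while the astrocyte receptors (0.29) and the newborn neuron and progenitor list (-0.50) lie between.

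Neuronal genes made up the other end of the comparison. Of 16 general neuronal genes tested, 14 were called lower and 0 higher, with a median of -2.91. The mean level of the list was 9.83, 9.69, 9.57, 9.76 and 10.16 on the 5 astrocyte arrays, against 12.42, 12.53, 12.54, 12.39 and 12.37 on the 5 tissue arrays. The astrocyte arrays thus lay below every tissue array, and replicate 5 was the highest of them. Syt1, the calcium sensor of vesicle release, had levels of 11.50, 11.05, 11.36, 11.18 and 11.60 in astrocytes, against 14.76, 15.18, 14.86, 14.99 and 14.78 in tissue, a difference of -3.57 ± 0.14, and was detected on all 5 arrays of both groups. The noncoding RNAs Meg3 (-4.47 ± 0.21) and Snhg11 (-4.22 ± 0.16), the neurofilament Nefm (-3.72 ± 0.16), Uchl1 (-3.21 ± 0.16) and Stmn2 (-3.20 ± 0.18) were lower. The astrocyte levels of Meg3 (5.53 to 6.61) lay near or below the lowest levels detected on those arrays (6.53 to 6.86). The size of its difference is therefore uncertain. Of the 16 members, 15 were still detected on at least 1 astrocyte array.

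Medium spiny neuron genes were lower for 21 of 22 tested, with a median of -2.62. The mean level of the list was 8.21, 9.42, 9.25, 9.56 and 10.10 on the astrocyte arrays, against 11.60, 11.72, 11.90, 11.85 and 11.72 on the tissue arrays. Astrocyte replicate 1 was more than 1 unit below the next astrocyte array. Tac1, the precursor of substance P, had levels of 5.72, 8.74, 9.28, 9.01 and 9.19 in astrocytes, against 12.99, 12.72, 13.04, 12.81 and 13.01 in tissue, a difference of -4.53 ± 0.49. Drd1 had levels of 5.94, 8.28, 8.11, 8.75 and 9.10 in astrocytes, against 11.69, 11.53, 12.42, 12.44 and 11.99 in tissue, a difference of -3.98 ± 0.43. Both were lowest on astrocyte replicate 1, and no astrocyte array reached the tissue range. The homeobox gene Isl1 (-3.97 ± 0.34), the opioid precursors Penk (-3.85 ± 0.36) and Pdyn (-3.63 ± 0.25) and Rgs9 (-3.35 ± 0.28), which shortens dopamine receptor signalling, were lower. Among the lower members Meis2 (-0.93 ± 0.19), a homeobox gene, had one of the smallest differences. Eya1, a transcriptional coactivator, was the member called higher (1.73 ± 0.31).

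Interneuron genes were lower for 13 of 16 tested and higher for 0, with a median of -2.32. Npy had levels of 7.74, 8.31, 7.54, 8.10 and 8.64 in astrocytes, against 12.60, 12.40, 12.03, 12.25 and 12.21 in tissue, a difference of -4.23 ± 0.24. Somatostatin (Sst, -4.01 ± 0.20), calretinin (Calb2, -2.98 ± 0.27) and the acetylcholine-synthesizing enzyme Chat (-3.35 ± 0.27) were lower. Crhbp and the choline transporter Slc5a7 went undetected on the astrocyte arrays, with bounds of 7.68-fold for Crhbp and 4.04-fold for Slc5a7. Genes of neurons in neighbouring regions such as hypothalamus and cortex were lower for 20 of 21 tested, with a median of -2.98. Pmch, the precursor of melanin-concentrating hormone, is made by hypothalamic neurons, and its levels were 5.71, 6.69, 5.70, 6.90 and 7.83 in astrocytes, against 13.37, 12.26, 9.41, 9.37 and 13.57 in tissue. The tissue arrays themselves spanned over 4 units, and Pmch had the largest estimated fall of all genes (-5.03 ± 0.76, adjusted p = 3.5e-05). It was detected on only 2 of the 5 astrocyte arrays, so the size of its fall is uncertain. Trh, which went undetected in astrocytes, was at least 11.1-fold lower, and Avp (-4.05 ± 0.23), Oxt (-4.03 ± 0.49) and Cbln1 (-3.89 ± 0.29) were lower too.

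Genes of synaptic vesicles and release were lower for 21 of 25 tested and higher for 0, with a median of -2.10. Syt4 (-3.97 ± 0.21), Rab3b (-3.47 ± 0.25), the vesicular GABA transporter Slc32a1 (-3.26 ± 0.28), Sv2b (-3.10 ± 0.18) and Sv2a (-3.08 ± 0.16) were lower. The active zone genes Rims1 (0.13 ± 0.28) and Bsn (0.17 ± 0.38) were not called. The postsynaptic list, which includes mRNAs carried into dendrites, was lower for 12 of 21 tested and higher for 2 (1 to 3 when 1 array was left out, with 1 without astrocyte replicate 2 or tissue replicate 1 or 5), with a median of -1.05. Cnksr2 (-3.46 ± 0.26), the glutamate receptor subunits Gria3 (-2.70 ± 0.12) and Grin2b (-2.26 ± 0.18), Camk2b (-2.49 ± 0.21) and Homer1 (-2.03 ± 0.22) were lower.

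For some members of the postsynaptic list no fall was called in the sorted astrocytes. Map2, a microtubule protein of dendrites whose mRNA is found there, had levels of 13.81, 14.09, 14.08, 13.94 and 14.14 in astrocytes, against 14.13, 14.26, 14.14, 14.32 and 14.0 in tissue. The ranges overlapped, and the difference was -0.16 ± 0.11 (adjusted p = 0.26). Shank3, a postsynaptic scaffold, had levels of 10.55, 10.35, 9.60, 10.13 and 10.94 in astrocytes, against 10.13, 10.84, 10.73, 10.13 and 9.87 in tissue, a difference of -0.03 ± 0.25 (adjusted p = 0.94) with the arrays mingled. Camk2a, Ddn and Dlg4, other members with dendritic mRNA that are named after their values were seen, differed by 0.49 ± 0.26, 0.37 ± 0.31 and 0.36 ± 0.72 and were not called. The kinesin Kif5a had levels of 14.56, 14.56, 14.24, 14.30 and 14.64 in astrocytes, against 13.12, 14.14, 13.77, 13.19 and 12.92 in tissue, and was called higher (1.03 ± 0.21). Its 2 other detected probes differed by 1.84 and 1.54. Against sorted neurons Kif5a differed by -0.65 ± 0.21, Shank3 by -1.30 ± 0.25 and Map2 by -0.09 ± 0.11.

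Cytoskeleton and motor genes had 7 of 21 tested higher (33.3%) and 8 lower (38.1%), against 24.2% and 27.6% of all genes. Their median was -0.18, which was -0.30 without astrocyte replicate 1 and -0.12 without astrocyte replicate 3. Stmn2, Stmn3 (-2.75 ± 0.18) and Map1b (-1.87 ± 0.28), which act on neuronal microtubules, and Tubb5 (-1.44 ± 0.16) were lower. Vimentin (Vim, 1.71 ± 0.17) and the tubulin Tubb2b (1.19 ± 0.11) were higher.

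Markers of the other cells of the tissue did not all move with the neurons. Oligodendrocyte genes were lower for 6 of 18 tested and higher for 2, with a median of -0.33 that was -0.22 without astrocyte replicate 3. The share lower was 33.3%, against 27.6% of all genes, and the share higher 11.1%, against 24.2%. The mean level of the list was 11.59, 11.96, 11.39, 11.67 and 12.11 on the astrocyte arrays, against 11.89, 11.83, 11.91, 11.87 and 11.97 on the tissue arrays, and the ranges overlapped. Without astrocyte replicate 3 or 4 only 3 members were called lower. Mag (-0.89 ± 0.26), the myelin-associated glycoprotein, was lower, though not when arrays were scaled to the same median (adjusted p = 0.0887), and Car2 (2.07 ± 0.19), a carbonic anhydrase, and Nkx6-2 (1.36 ± 0.24) were higher. Mobp (-0.08 ± 0.20) and Mbp (-0.07 ± 0.09, near the highest intensity) were not called. The other 4 detected probes of Mobp differed by -0.71 to -1.45. Genes of oligodendrocyte precursors were lower for 8 of 13 tested and higher for 1, with a median of -0.78. Gpr17 (-2.14 ± 0.25), Enpp6 (-1.84 ± 0.28) and Pdgfra (-1.18 ± 0.29) were lower, and Neu4, undetected on the astrocyte arrays, was at least 2.81-fold lower. The higher gene was Tmem100 (2.28 ± 0.21), and without tissue replicate 2 a further gene was called higher. Olig1 (0.08 ± 0.16) was not called.

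Microglia genes were lower for 8 of 20 tested (40%, against 27.6% of all genes) and higher for 0, with a median of -0.49, between -0.89 and -0.01 on single chips. The mean level of the list was 8.83, 9.08, 9.11, 9.16 and 9.57 on the astrocyte arrays, against 9.66, 9.48, 9.68, 9.67 and 9.49 on the tissue arrays, and astrocyte replicate 5 reached the tissue range. Cx3cr1, the fractalkine receptor, had levels of 8.13, 8.51, 8.74, 9.0 and 9.23 in astrocytes, against 9.65, 9.83, 9.78, 9.51 and 9.65 in tissue, a difference of -0.96 ± 0.17. Trem2 (-0.92 ± 0.20), C1qc (-0.80 ± 0.22) and P2ry13 (-0.58 ± 0.15) were lower, and Fcrls (-0.01 ± 0.21) was not called. All 20 tested members were detected in the astrocyte preparation, and all 20 were called higher in it than in sorted neurons, with a median of 2.81. The list of border macrophages and blood leukocytes had 2 of 10 tested higher (1 without astrocyte replicate 3 or 4 or tissue replicate 3) and 3 lower (1 without astrocyte replicate 2), or 30% against 27.6% of all genes, and a median of -0.05. Pf4 (1.03 ± 0.29) was higher and Cd163 (-0.89 ± 0.16) lower.

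Endothelial genes were higher in the astrocyte preparation for 15 of 17 tested and lower for 0, with a median of 1.11, between 0.39 and 1.54 on single chips. The mean level of the list was 10.40, 9.82, 10.82, 10.89 and 10.26 on the astrocyte arrays, against 9.25, 9.49, 9.54, 9.45 and 9.35 on the tissue arrays, with no overlap. The growth factor receptor Flt1 had levels of 12.34, 11.49, 13.14, 13.27 and 12.27 in astrocytes, against 10.66, 11.05, 11.36, 10.99 and 10.54 in tissue, a difference of 1.58 ± 0.28. Vwf (1.51 ± 0.28), Pecam1 (1.47 ± 0.24), Tek (1.34 ± 0.28) and the glucose transporter Slc2a1 (1.26 ± 0.21) were higher, and Kdr (-0.17 ± 0.29) was not called. Against sorted neurons the median of the list was 0.11, with 4 of 17 called higher and 1 lower. Mural and perivascular fibroblast genes were higher for 8 of 18 tested (44.4%) and lower for 3 (16.7%), with a median of 0.20. That median was 0.097 without astrocyte replicate 1 and 0.32 to 0.34 without astrocyte replicate 2 or 4 or tissue replicate 3, and between -0.05 and 0.67 on single chips. The pericyte gene Pdgfrb (2.54 ± 0.35), the smooth muscle genes Acta2 (2.36 ± 0.44) and Myh11 (2.31 ± 0.40), Notch3 (2.35 ± 0.37) and Rgs5 (1.49 ± 0.32) were higher. Col1a1 went undetected on the astrocyte arrays and was at least 6.67-fold lower, whereas Col1a2, the other chain of type I collagen, which is named after its values were seen, was called higher (0.97 ± 0.24).

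Ependyma and choroid plexus genes had 2 of 13 tested higher and 0 lower, 4 higher without tissue replicate 3 and 2 lower without astrocyte replicate 1. Otx2 (1.94 ± 0.31) was the member with the largest rise and Foxj1 (0.06 ± 0.29) was not called. Red blood cell genes had 3 of 6 tested lower and 0 higher, with a median of -0.60 that lay between -1.09 and 0.12 on single chips, among them Hbb-b1 (-0.86 ± 0.18) and Hba-a1 (-0.93 ± 0.22), whose near-identical copies may share probes. Neither globin gene was called when arrays were scaled to the same median in place of quantile normalization (adjusted p = 0.109 and 0.0669). Genes of newborn neurons and progenitors had 7 of 16 tested lower and 3 higher. The higher ones were Egfr (3.07 ± 0.15), Vim and Nes (1.22 ± 0.32), and Dcx (-2.95 ± 0.24) and Dlx1 (-2.59 ± 0.22), genes of migrating and GABA-releasing neurons, were lower. Dlx6 went undetected on the astrocyte arrays and was at least 2.18-fold lower. Cell division genes had 2 of 18 tested higher (1 without astrocyte replicate 1 or 2 or tissue replicate 3) and 6 lower, which is 33.3% of the list against 27.6% of all genes. Mki67 and Cdk1 were not called, each being detected on 1 of the 10 arrays.

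**Figure D3:**
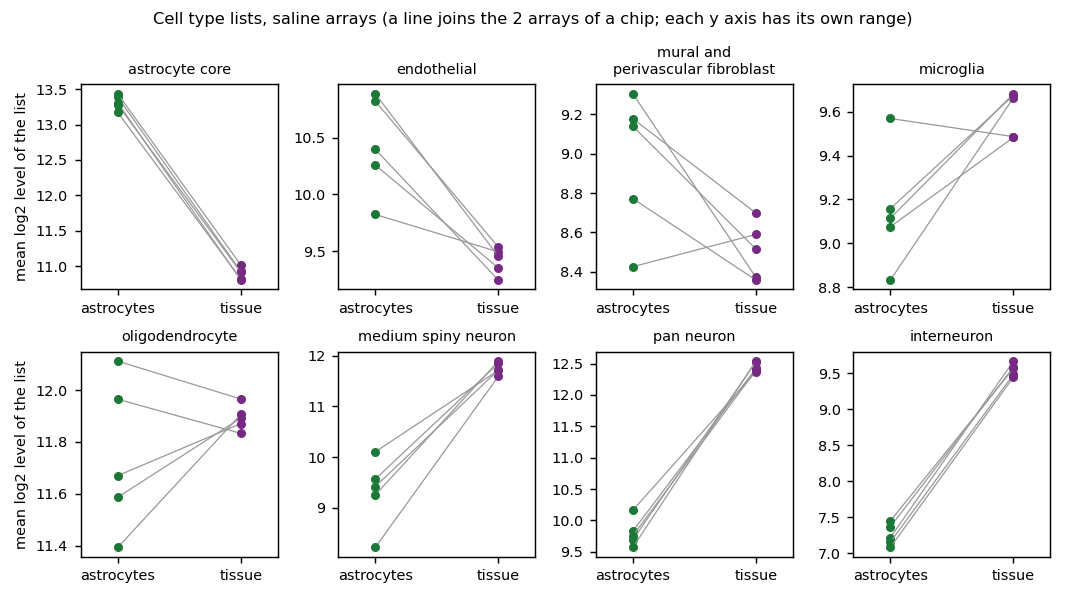
Mean log2 level of 8 cell type lists on the saline arrays; each point is 1 array, lines join the astrocyte and tissue array of 1 chip, and each panel has its own y range. The groups do not overlap for the astrocyte core, endothelial, medium spiny neuron, general neuron and interneuron lists, and they overlap for the mural, microglia and oligodendrocyte lists.

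Immediate early genes are switched on within minutes by calcium, growth factors or stress, and they parted into 2 sets. Of 24 tested, 13 were called higher and 5 lower, with a median of 0.88, between 0.0007 and 2.05 on single chips. Fos had levels of 13.35, 12.51, 14.09, 13.70 and 12.41 in astrocytes, against 9.42, 9.59, 10, 9.94 and 9.44 in tissue, a difference of 3.53 ± 0.28 (adjusted p = 3.13e-08). Zfp36, which encodes a protein that destabilizes cytokine mRNAs, had levels of 11.81, 10.90, 11.89, 11.88 and 10.83 in astrocytes, against 7.77, 7.41, 7.99, 7.57 and 7.77 in tissue, a difference of 3.76 ± 0.22. Both were higher on every astrocyte array. Ccn1 (3.56 ± 0.27) and Fosb (3.24 ± 0.36) were higher, and Atf3, a stress-induced repressor that went undetected on the tissue arrays, was at least 5.60-fold higher.

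The 5 lower members were Npas4, Egr4, Egr3, Arc and Egr2, genes that neurons induce with activity, and Arc and Egr2 are named after their values were seen. Npas4 had levels of 5.84, 6.07, 6.22, 6.60 and 5.72 in astrocytes, against 8.97, 9.29, 9.97, 9.72 and 8.41 in tissue, a difference of -3.18 ± 0.30. Egr4 had levels of 8.82, 9.19, 8.47, 8.83 and 9.37 in astrocytes, against 11.74, 11.66, 12.25, 11.97 and 12.30 in tissue, a difference of -3.05 ± 0.18. Neither gene overlapped between the groups. The astrocyte levels of Npas4 lay near or below the lowest levels detected on those arrays (6.53 to 6.86), so the size of its difference is uncertain. Egr3 (-2.09 ± 0.20), Arc (-1.50 ± 0.28) and Egr2 (-1.11 ± 0.30) were lower by less, and Egr1 (-0.41 ± 0.20, adjusted p = 0.11), also named after its values were seen, was not called. Against sorted neurons Fos differed by 1.88 ± 0.28, Zfp36 by 3.08 ± 0.22 and Npas4 by -4.72 ± 0.30. The general neuronal list, which moved with the lower set, had a median of -2.91, and its part in the lower set was not tested.

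**Figure D4:**
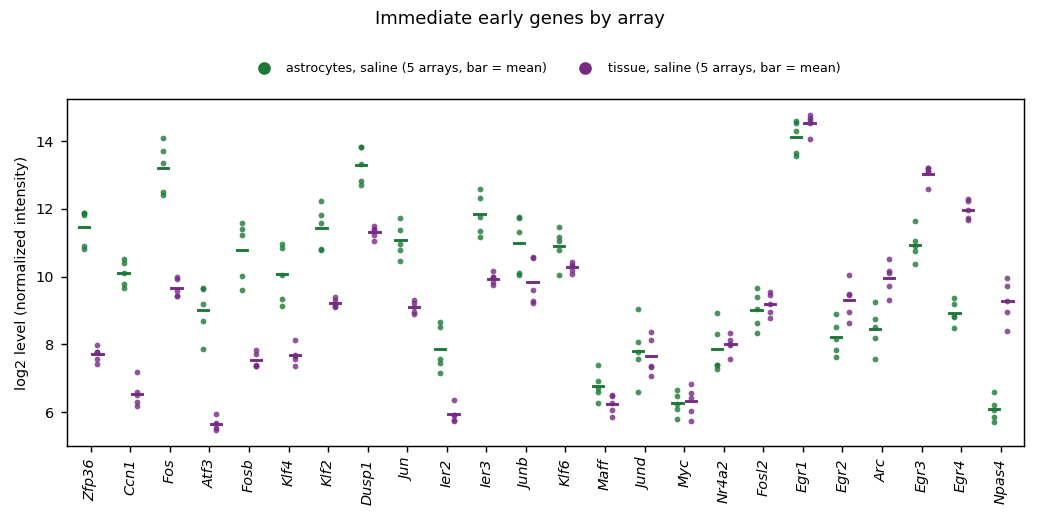
Log2 levels of the 24 tested immediate early genes on each saline array, ordered by the difference; points are arrays, bars are means of 5 arrays, and astrocytes stand left of tissue. From Zfp36 to Ier3, a gene named for the position of its points, the astrocyte points lie above tissue, and from Arc to Npas4 they lie below it.

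Chemokines and other inflammatory genes were higher for 17 of 22 tested and lower for 0, with a median of 1.47. Of the 30 genes listed 29 had a probe, and 5 of the 22 tested went undetected on every tissue array. Members too dim for the detection filter were not tested, so the share and the median depend in part on that filter. The chemokine gene Ccl4 had levels of 10.96, 11.10, 10.86, 10.90 and 11.32 in astrocytes, against 7.06, 6.76, 7.32, 6.51 and 7.51 in tissue, a difference of 3.99 ± 0.33. Ccl3 had levels of 9.57, 10.10, 9.26, 10.08 and 10.14 in astrocytes, against 6.36, 5.67, 5.40, 6.13 and 5.73 on tissue arrays that did not detect it, so that it was at least 9.90-fold higher. The groups were apart for both genes. Cxcl1, which attracts neutrophils, likewise went undetected on the tissue arrays and was at least 7.98-fold higher. Socs3, a feedback inhibitor of cytokine signalling (3.54 ± 0.28), and the adhesion molecules Vcam1 (2.91 ± 0.44) and Icam1 (2.50 ± 0.44) were higher. Cxcl16 (0.01 ± 0.28), Relb (-0.20 ± 0.33) and Lif (0.27 ± 0.26) were not called. Microglia and endothelial cells also make several of these transcripts. Beside the inflammatory genes, the microglia list ranged from 8.83 to 9.57 in astrocytes and from 9.48 to 9.68 in tissue. The endothelial list ranged from 9.82 to 10.89 in astrocytes and from 9.25 to 9.54 in tissue, and all members of both lists were detected in astrocytes. The part of either cell type in the inflammatory genes was not tested.

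Promoter sequence was looked at for these genes because NF-kB, the factor many of them answer to, reads the kappaB motif. Cxcl1, Cxcl2, Cxcl10 and Nfkbia, called higher and holding the motif, are shown as examples. The windows are the 250 bases before the RefSeq start on GRCm38.p6, written 5′ to 3′ on the gene's strand, and capitals mark each match to the motif on either strand, overlapping matches joined.
Cxcl1 (chr5:90890995-90891244, plus strand): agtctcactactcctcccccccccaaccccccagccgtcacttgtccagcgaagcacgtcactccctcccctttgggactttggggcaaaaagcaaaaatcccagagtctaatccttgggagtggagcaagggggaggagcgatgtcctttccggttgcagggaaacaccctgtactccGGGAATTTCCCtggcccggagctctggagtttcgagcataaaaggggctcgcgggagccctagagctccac
Cxcl2 (chr5:90903649-90903898, plus strand): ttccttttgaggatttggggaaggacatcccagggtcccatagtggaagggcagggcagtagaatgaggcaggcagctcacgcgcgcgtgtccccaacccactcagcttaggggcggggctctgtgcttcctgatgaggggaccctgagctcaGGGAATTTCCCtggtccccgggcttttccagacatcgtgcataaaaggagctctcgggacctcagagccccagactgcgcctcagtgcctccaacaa
Cxcl10 (chr5:92348890-92349139, minus strand): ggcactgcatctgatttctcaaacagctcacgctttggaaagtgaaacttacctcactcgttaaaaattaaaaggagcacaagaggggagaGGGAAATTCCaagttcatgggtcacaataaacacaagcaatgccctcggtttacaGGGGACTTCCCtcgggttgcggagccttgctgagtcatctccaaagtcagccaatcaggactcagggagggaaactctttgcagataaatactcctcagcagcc
Nfkbia (chr12:55492648-55492897, minus strand): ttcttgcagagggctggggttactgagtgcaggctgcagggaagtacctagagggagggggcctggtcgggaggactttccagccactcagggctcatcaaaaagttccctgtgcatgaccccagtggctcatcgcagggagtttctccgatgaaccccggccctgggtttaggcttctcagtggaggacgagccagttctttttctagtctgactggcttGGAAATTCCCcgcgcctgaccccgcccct
Of the 17 inflammatory genes called higher, 10 had a window and 6 of these held a kappaB motif (60.0%), against 1084 of 9798 tested genes with a window (11.1%) and 8.23% of all 27025 genes with one. Nfkb2 and Lif, the members not called that had a window, held the motif too, so that it did not set the higher members apart. The list was drawn up to include NF-kB genes, and its share is no test of the motif. Of the 4 shown, Cxcl1 has the bound given above, and the log2 differences of the others were 2.32 ± 0.29 for Cxcl2, 1.86 ± 0.54 for Cxcl10 and 1.23 ± 0.21 for Nfkbia, and Cxcl2 and Nfkbia are named after their values were seen. For the immediate early genes the half-site of the cAMP response element, TGACGT, was searched on both strands in the same windows. It was found for 5 of the 12 higher genes with a window and for all 3 of the lower genes with one, against 11.2% of tested genes. In the same immediate early genes the kappaB motif was found for 4 of 12 higher and all 3 lower, and it was found for 5 of 25 astrocyte core genes with a window. The CArG box (CCWWWWWWGG, W being A or T) and the AP-1 motif (TGANTCA, N being any base) were searched as well. In the immediate early genes the CArG box was found for 1 of 12 higher and 1 of 3 lower, against 1.44% of tested genes. The AP-1 motif was found for 0 of 12 and 0 of 3, against 5.59%. Of the 10 higher inflammatory genes 0 held the CArG box and 2 the AP-1 motif. Fos and Npas4, which differed in opposite directions, both hold the cAMP response half-site, which the capitals mark in the windows that follow.
Fos (chr12:85473640-85473889, plus strand): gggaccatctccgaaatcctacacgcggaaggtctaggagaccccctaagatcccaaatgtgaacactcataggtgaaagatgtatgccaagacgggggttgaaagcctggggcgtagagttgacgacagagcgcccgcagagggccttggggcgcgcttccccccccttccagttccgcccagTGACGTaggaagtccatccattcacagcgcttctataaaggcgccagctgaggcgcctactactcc
Npas4 (chr19:4989972-4990221, minus strand): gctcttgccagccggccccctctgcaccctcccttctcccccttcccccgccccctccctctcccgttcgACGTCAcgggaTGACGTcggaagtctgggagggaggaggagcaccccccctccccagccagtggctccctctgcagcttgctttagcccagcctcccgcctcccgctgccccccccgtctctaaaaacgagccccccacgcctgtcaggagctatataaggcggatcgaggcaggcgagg
A match describes the letters of a window and was not tested as a site.

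Genes in use as markers of reactive astrocytes were higher for 21 of 28 tested and lower for 2, with a median of 1.13. Lcn2, a secreted iron-binding protein, had levels of 10.13, 9.61, 8.90, 9.58 and 8.82 in astrocytes, against 6.50, 6.06, 6.99, 7.61 and 7.03 in tissue, a difference of 2.57 ± 0.32 with no overlap. Gbp2 (1.72 ± 0.20), Vim (1.71 ± 0.17), Hspb1 (1.65 ± 0.27) and Osmr (1.52 ± 0.23), the oncostatin M receptor, were higher. Fkbp5 (-1.38 ± 0.23) and the sphingosine kinase Sphk1 (-1.32 ± 0.31) were lower, and S100a10 (0.04 ± 0.17) was not called, nor was Cd109, which no astrocyte array detected. Interferon and antigen presentation genes were higher for 18 of 23 tested and lower for 0, with a median of 1.04. The class I genes H2-K1 (2.14 ± 0.18) and H2-D1 (1.42 ± 0.14), whose paralogs are close in sequence, and Irf1 (2.01 ± 0.23), Gbp3 (1.81 ± 0.15) and Ifi27 (1.57 ± 0.14) were higher. The class II genes Cd74 (0.08 ± 0.14) and H2-Ab1 (0.33 ± 0.36), which microglia and macrophages express, were not called.

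Heat shock genes were higher for 8 of 17 tested (47.1%) and lower for 5 (29.4%), against 24.2% and 27.6% of all genes. Their median was 0.19, which was -0.044 with no normalization between arrays, 0.092 and 0.12 without tissue replicate 1 and astrocyte replicate 4, and 0.30 without tissue replicate 4. Hspa1a (2.45 ± 0.35) and Hspa1b (2.25 ± 0.27), near-identical copies whose probes may share targets, Hspb8 (1.61 ± 0.19) and Bag3 (1.30 ± 0.16) were higher. Hsph1 (-1.29 ± 0.14), Dnajb1 (-0.99 ± 0.11) and Hsp90aa1 (-0.63 ± 0.14) were lower. The integrated stress response list was higher for 10 of 20 tested (50%) and lower for 5 (25%), with a median of 0.53. The cystine transporter Slc7a11 (2.72 ± 0.27), the serine synthesis enzyme Phgdh (2.31 ± 0.33), Ppp1r15a (1.87 ± 0.20) and Slc3a2 (1.80 ± 0.18) were higher. Asns, the asparagine synthetase, had levels of 8.89, 9.59, 9.62, 9.54 and 10.28 in astrocytes, against 12.68, 12.67, 12.62, 12.66 and 12.80 in tissue, a difference of -3.10 ± 0.19. Chac1 (-3.03 ± 0.23) was lower too, and Atf4 (0.26 ± 0.13), the transcription factor of the pathway, was not called, and without astrocyte replicate 5 it was (0.35, adjusted p = 0.027). Genes against oxidative stress and metallothioneins were higher for 11 of 23 tested and lower for 3, with a median of 0.48. Gstm1 (2.82 ± 0.24), Mt2 (2.32 ± 0.35), Mt3 (2.09 ± 0.15), Nqo1 (1.79 ± 0.29) and catalase (Cat, 1.62 ± 0.16) were higher, and Srxn1 (-0.80 ± 0.14) was lower.

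Genes in no list also separated the preparations. Of the called genes outside the lists, those with the smallest p were, among higher genes, Cth (3.10 ± 0.14), which makes cysteine from cystathionine, Cideb, Eva1a (2.85 ± 0.13), Nat8 (3.40 ± 0.16) and AI464131. Cideb and AI464131 went undetected on the tissue arrays, with bounds of 7.79-fold for Cideb and 6.57-fold for AI464131. Among lower genes they were Ryr2 (-3.23 ± 0.11), a calcium release channel, Dync1i1 (-3.14 ± 0.12), a dynein chain of neurons, Cntnap2 (-3.01 ± 0.12), Gtl2 (-2.68 ± 0.10), an older name of Meg3 kept for a separate probe, and B3galnt1, undetected in astrocytes and at least 9.85-fold lower. The 15 largest differences in each direction further held Phkg1 (3.94 ± 0.20), a catalytic subunit of phosphorylase kinase, 1190003M12Rik (3.53 ± 0.36) and Lcat (3.50 ± 0.32), which esterifies cholesterol, on the higher side. On the lower side they held Resp18 (-4.28 ± 0.31) and Scg2 (-4.20 ± 0.17) of secretory granules, Zcchc12 (-4.27 ± 0.32), the transporter Slc10a4 (-4.17 ± 0.22) of cholinergic and monoamine vesicles, the sodium channel Scn2a (-4.14 ± 0.23) and Plppr4 (-4.05 ± 0.26). The neuronal connexin Gjd2 had levels of 5.36, 6.46, 6.32, 6.04 and 6.03 on astrocyte arrays, none of which detected it, against 10.60, 10.11, 10.17, 10.24 and 10.63 on tissue arrays, and was at least 12.2-fold lower.

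The same difference was measured on 10 arrays of other mice, taken after dexamethasone, an agonist of the glucocorticoid receptor. There 6093 of 13228 genes were called, 46.1% of those tested, 3069 higher (23.2%) and 3024 lower (22.9%) in astrocytes. With no normalization between arrays 27.2% of the called genes were higher, in place of 50.4%, and the median over all genes was -0.39. Both comparisons called 5235 genes, 85.9% of the genes called under dexamethasone and 76.3% of those called under saline, and 5224 of these had the same direction. Across the 13228 genes the 2 sets of differences correlated with r = 0.933. Genes are not independent replicates, and the arrays share chips and normalization. All 29 astrocyte core genes were again called higher, with a median of 2.34, and Fgfr3 differed by 3.83 ± 0.27 under dexamethasone, against 4.36 ± 0.32 under saline. Inflammatory genes were higher for 14 of 22 (median 1.0), and Ccl4 differed by 4.01 ± 0.26, against 3.99 ± 0.33 under saline.

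The difference between the preparations depended on the agent for 47 genes, 0.355% of those tested. The astrocyte minus tissue difference was more positive under dexamethasone for 42 (0.318%) and more negative for 5 (0.0378%). This split is by sign, so that a fall that was smaller under dexamethasone counts as more positive. At an unadjusted p under 0.05 the number of genes was 861. The count of 47 became 20 to 54 when 1 array was left out. It was 20 without astrocyte dexamethasone replicate 2 or 3, 21 without tissue saline replicate 1, 3 or 5, 22 and 25 without astrocyte dexamethasone replicates 4 and 1, 30 without tissue dexamethasone replicate 2, and 7, of which 71.4% were more positive under dexamethasone in place of 89.4%, with no normalization between arrays. Mthfd2, a mitochondrial folate enzyme, differed by 2.29 ± 0.24 under dexamethasone, against -0.62 ± 0.13 under saline, an interaction of 2.91 ± 0.28 (SE; adjusted p = 3.92e-07). Fkbp5, a chaperone induced by the glucocorticoid receptor, differed by 1.35 ± 0.15 under dexamethasone, against -1.38 ± 0.23 under saline, an interaction of 2.73 ± 0.27 (adjusted p = 6.19e-07). Both were called higher in astrocytes than in tissue under dexamethasone and lower under saline, where Mthfd2 was not called with the mean of its probes (-0.33, adjusted p = 0.106). The other genes with the smallest p were 2900002G04Rik (1.75 ± 0.22), Farp2 (1.66 ± 0.21) and Plcl2 (1.41 ± 0.19). Pmch differed by -0.80 ± 0.68 under dexamethasone, against -5.03 ± 0.76 under saline, and its interaction of 4.23 ± 1.08 was not called (adjusted p = 0.0994).

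Of 24 known glucocorticoid targets tested, 18 were higher and 0 lower in astrocytes under dexamethasone (median 1.56), against 12 higher and 4 lower under saline (median 0.65). The values that follow are those under saline. Pdk4 had levels of 10.30, 10.11, 10.12, 10.11 and 10.02 in astrocytes, against 7.72, 7.83, 7.55, 7.43 and 7.71 in tissue, a difference of 2.48 ± 0.14. Glul (2.49 ± 0.26), Mertk (3.09 ± 0.20), Mt2 (2.32 ± 0.35) and Dusp1 (1.99 ± 0.21) were higher. Fkbp5 had levels of 9.13, 8.71, 8.24, 8.50 and 7.83 in astrocytes, against 9.71, 9.77, 9.82, 9.93 and 10.07 in tissue, and the astrocyte arrays lay below the tissue arrays. The kinase Sgk1 (-1.13 ± 0.18) and the cell cycle inhibitor Cdkn1a (-0.73 ± 0.24) were lower, and Zbtb16 (-0.02 ± 0.24), Klf9 (-0.03 ± 0.13) and Plin4 (0.01 ± 0.53) were not called.

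**Figure D5:**
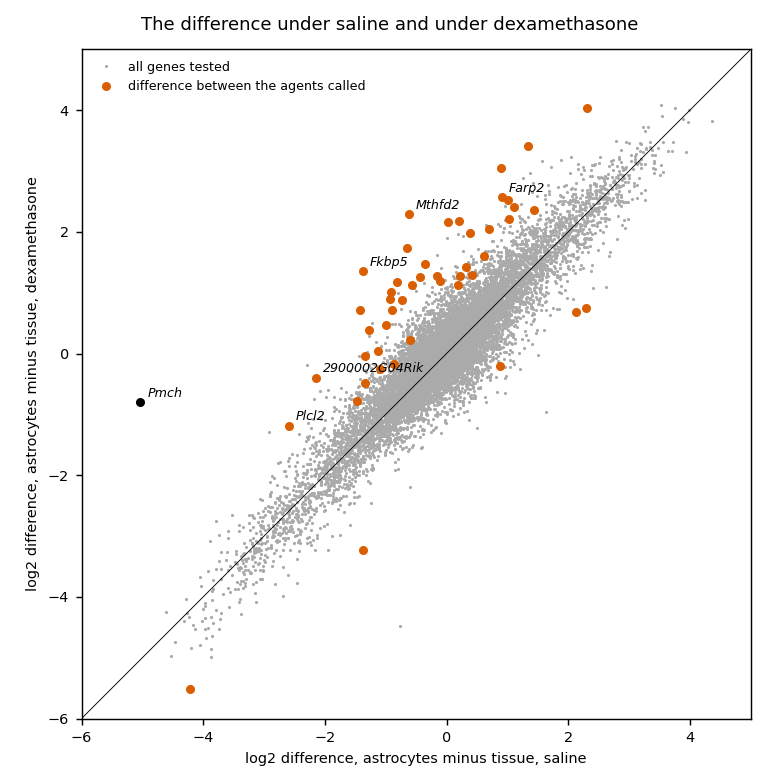
Log2 difference, astrocytes minus tissue, under dexamethasone (y axis) against that under saline (x axis) for the 13228 genes tested (grey), with equal values on the line; orange marks the 47 genes whose differences were called as differing between the agents. Most genes lie along the line, Mthfd2 and Fkbp5 lie above it and Pmch, in black, lies far to its left.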

How the data were processed

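RNA was measured on Illumina mouse bead arrays, 6 arrays to a chip, with each array taken as an individual mouse. Chip and replicate number are the same per the labels. As deposited, the main table holds log2 bead intensities that the authors had not normalized between arrays, without detection p-values and with no statement of background correction or scanner settings. The authors' value table, used here only as an alternative, matches log2 taken again of quantile-normalized log2 intensities (largest difference 5e-10, against a tolerance of 1e-08; median 2.99 in every column). Every per-sample column belonged to a sample of the series.

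Starting from the non-normalized table, background was corrected with limma's normexp (offset 16), 1588 probes of smell, pheromone, trace amine and taste receptor genes standing in for negative controls. Quantile normalization over all 30 arrays and log2 followed. Because the tables give no detection p, a probe counted as detected where under 5% of the receptor probes were as bright, and probes detected on at least 5 arrays were kept (22568 of 44586). Of 46174 probes, 35725 have 1 gene symbol, 0 several and 10449 none in the platform annotation, with 936 symbols updated through Entrez ID or accession. Each gene was represented by the probe with the highest mean.

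Comparisons used limma 3.58.1 (lmFit and eBayes, R 4.3.3) with Benjamini-Hochberg adjustment over 13228 genes. The fit was of the 15 saline arrays, of the 15 dexamethasone arrays for the comparison under dexamethasone, or of all 30 arrays for the interaction. p-values are two-sided and rest on 5 arrays a group, each taken as an individual mouse, and the number of arrays limits the precision. The script was tested on simulated data. Every group lay at 1 fixed position of the chips, and position cannot be told apart from group. Deviations from the group means correlated with a mean r of 0.076 between astrocyte and tissue arrays of the same chip (0.025 to 0.158) and of -0.018 between different chips, and the chip as a block was an alternative.

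The 10 arrays, the 38 gene lists (848 genes, 766 with a probe, 678 tested) and the alternatives were chosen with earlier results of these data known. The rule for named genes took the 15 largest differences in each direction with the same sign on every chip, of each list up to 6 members with the largest differences, 3 in the opposite direction and 3 with the smallest, all core genes, the 5 smallest p of the interaction, and in each direction the 5 smallest p outside the lists. Alternatives covered normalization, background, filter, probe choice, source table, arrays in the fit, chip block, a 2-fold threshold and each array left out. Promoter windows come from RefSeq (GRCm38.p6) by symbol.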

Additional observations from a re-analysis of the deposited data

Results flagged for a closer look

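In 8 of 166 groups of 5 arrays, the most distant array's gap to its nearest neighbour exceeded 0.71 of the group's range, and chance gives about 1 in 20 such groups. Among astrocytes, Tac1 was low on replicate 1 (5.72, with the nearest array at 8.74; ratio 0.848), the same array that was low in other medium spiny neuron genes. The mean of the heat shock list was low on astrocyte replicate 2 (10.47, nearest 10.64; ratio 0.86), and Dync1i1 was low on that array too (6.79, nearest 7.18; ratio 0.828). On astrocyte replicate 4, Meg3 was high (6.61, nearest 5.77; ratio 0.783) and Cntnap2 low (8.40, nearest 8.76; ratio 0.724). In tissue, Fgfr3 was low on replicate 2 (5.76, nearest 7.44; ratio 0.824), Slc7a10 was high on replicate 1 (10.47, nearest 10.21; ratio 0.745), and the list of border macrophages and leukocytes was high on replicate 5 (7.11, nearest 6.74; ratio 0.792).

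The astrocyte minus tissue difference was called as differing between dexamethasone and saline for 47 genes by limma's interaction term. The named ones were Mthfd2 (2.91), Fkbp5 (2.73), 2900002G04Rik (1.75), Farp2 (1.66) and Plcl2 (1.41), each the dexamethasone difference minus the saline difference in log2 units. For 2900002G04Rik the difference was -0.40 ± 0.19 under dexamethasone, where it was not called, against -2.15 ± 0.12 under saline. Farp2 differed by 2.57 ± 0.17 under dexamethasone, against 0.91 ± 0.13 under saline, and Plcl2 by -1.19 ± 0.13, against -2.60 ± 0.15 under saline.

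Of the 3173 detected probes that carry no gene symbol in the annotation, 1350 differed between astrocytes and tissue (42.5%), 560 higher and 790 lower, over a range of -4.51 to 3.31. They entered no comparison above.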

How the results depend on the processing

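The number of genes called between astrocytes and tissue was 6123 with no normalization between arrays and 7083 with the chip as a replicate block, and every other alternative except the fold threshold lay between them. Adding a 2-fold threshold left 3415. Left-out arrays gave 6452 to 6748 for this comparison, 7341 to 7566 against neurons and 5664 to 6700 under dexamethasone. For the interaction they gave 20 to 54, the replicate block gave 59 in place of 47, and no normalization gave 7. Of 285 named genes called, 248 stayed called with the same sign in every alternative, and of 87 not called 19 were called in at least 1. Under the alternatives other than left-out arrays, list medians moved by at least their SD over chips in 50 cases and by less in 367. With 1 array left out, they did so in 6 cases and moved by less in 374. Turned signs were counted for named genes called in the main fit or the alternative, and for list medians larger than their SD over chips. These were Atp5b at 0.078 and Rpl3 at 0.019 when arrays were scaled to the same median, Cdc20 at 0.17 and Ncam1 at 1.69 with quantile normalization over the 10 arrays alone, Ncam1 at 1.07 with the mean of its probes, and the heat shock median at -0.044 with no normalization. Smaller medians turned as well when 1 array was left out. Among them were the border macrophage median (0.080 without astrocyte replicate 4), the ribosomal median (0.062 without astrocyte replicate 3) and the ependyma median (-0.091 without astrocyte replicate 1). For Ncam1 and Cdc20 another probe of the gene was then used or averaged in, and its probes differ in sign. For Atp5b, Rpl3 and the heat shock list the cause was not tested. Apart from Gfap and Kcnj10, no call of a gene named above changed with the replicate block. Of the called genes with other detected probes, 3227 of 3645 such probes had the same sign and 82 were called with the opposite one. Levels near background or near the highest intensity bound only the size of a difference.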

Other observations

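Genes were also grouped by the start of the symbol into 71 families of at least 15 tested members. The median difference lay within 0.5 of 0 for 67 of them, and the 4 beyond it were Aldh and Sox above and Rgs and Pde (7 of 15 lower, 2 higher, median -0.66) below. Of all genes tested 24.2% were called higher and 27.6% lower. The 3 families described here were chosen after their values were seen. Of 16 aldehyde dehydrogenase genes tested, 9 were called higher in astrocytes and 2 lower, with a median difference of 0.85 (0.68 to 0.88 under the other scalings) against -0.04 over all genes. Aldh1l1 differed by 3.13 ± 0.27, Aldh1a1 by 2.03 ± 0.15, Aldh2 by 1.97 ± 0.12 and Aldh3b1 by 1.92 ± 0.15. The 2 lower ones were the mitochondrial Aldh1b1 (undetected on the astrocyte arrays, at least 2.29-fold lower) and Aldh18a1 (-1.25 ± 0.23), which makes the precursor of proline.

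Of 18 genes with symbols starting in Sox, the SOX transcription factors and their antisense or overlapping RNAs, 11 were called higher and 1 lower, with a median of 0.70 (0.48 to 0.69 under the other scalings). Sox7, known from endothelium, differed by 2.58 ± 0.27, Sox13 by 2.06 ± 0.29, Sox5 by 1.78 ± 0.11 and Sox2, a factor of neural stem cells and glia, by 1.75 ± 0.19. Sox10, the oligodendrocyte factor, was the lower one (-0.91 ± 0.21).

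Regulators of G protein signalling, which shorten the signal of receptors, were lower for 10 of 17 tested and higher for 4, with a median of -1.55 (-1.69 to -1.48 under the other scalings). Rgs9 (-3.35 ± 0.28), Rgs17 (-2.84 ± 0.16) and Rgs8 (-2.45 ± 0.24) were lower. Rgs11 and Rgs2 went undetected on the astrocyte arrays, with bounds of at least 6.36-fold for Rgs11 and 2.76-fold for Rgs2. The higher ones were Rgs1 (1.87 ± 0.28), a gene of immune cells, Rgs5 (1.49 ± 0.32) of pericytes, Rgs6 (1.47 ± 0.28) and Rgs12 (0.67 ± 0.19).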
